A study of Mus musculus with 8 samples.

Results

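Ephrins and Eph receptors were measured by RNA sequencing in medullary thymic epithelial cells (mTECs) of the mouse, the stromal cells that display self-antigens to developing T cells. The account covers 10 genes of the 25466 in the count table. They are the ephrin-A ligands Efna1, Efna2, Efna3, Efna4 and Efna5, the ephrin-B ligands Efnb1 and Efnb2, the EphA receptors Epha1 and Epha2 and the EphB receptor Ephb4. The family was listed around Efna3, which was selected on its level in these libraries because it was far higher in Tspan8posMHCIIhi cells. For the 10 genes, the values between the 2 MHCIIhi subsets are therefore given as a description, without a p-value for any single gene. Counts of the 10 genes past a threshold there are a description too. Genes outside the list keep their tests. All 10 genes were in the table and passed the filter on low counts, as did the other 12 ephrin and Eph genes of the mouse.

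The 8 libraries came from wild-type (wt) BL6N6 mice used at 4–6 weeks of age, with no treatment or transgene. Live CD45neg Epcam-positive CDR1neg cells were sorted by the surface level of the tetraspanin Tspan8 and of MHC class II (MHCII), a maturation marker of mTECs. This gave 4 subsets with 2 biological replicates each, Tspan8negMHCIIlo, Tspan8negMHCIIhi, Tspan8posMHCIIhi and Tspan8posMHCIIlo. Whether the replicates came from separate animals or from pools was not given, so the p-values measure the spread between these libraries only. The libraries held 1941518 to 7783841 counts, and 3 counts corresponded to 0.385 to 1.55 CPM, the count scaled to a common library size. The sorted markers followed the labels. Tspan8 was at 3.65 to 14.6 CPM in the 4 Tspan8neg libraries and at 347 to 404 CPM in the 4 Tspan8pos libraries. The MHCII gene H2-Ab1 was higher in the MHCIIhi subset at each Tspan8 level, at 5043 against 1887 CPM in Tspan8neg cells and at 2525 against 503 CPM in Tspan8pos cells. Its level in Tspan8posMHCIIhi was thus closer to Tspan8negMHCIIlo than to Tspan8negMHCIIhi. The 8 mTEC markers examined were all detected in every subset. Genes of thymocytes summed to 933 CPM in replicate 2 of Tspan8negMHCIIlo, against 62.8 to 336 CPM in the other libraries. Among the listed ephrin and Eph genes, calls of Efna1, Efna4 and Epha1 changed without that library, and the values without it are given. Calls of genes outside the list were not examined without it.

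Eph receptors are receptor tyrosine kinases, and ephrins are their membrane-bound ligands, so that signalling requires contact between cells and can run into the receptor-bearing cell as well as back into the ligand-bearing cell. Ephrin-A ligands are tethered by a GPI anchor and mainly bind EphA receptors, whereas ephrin-B ligands span the membrane and mainly bind EphB receptors. The system guides cell sorting, boundary formation, adhesion and repulsion. In the thymus, Eph and ephrin genes of the epithelium have been linked to its organisation and to contacts with thymocytes.

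Efna3 (ENSMUSG00000028039.11) lies on the minus strand of chromosome 3 of GRCm38, at chr3:89313899-89322965. Efna4 (chr3:89333390-89338028) lies upstream of it and Efna1 (chr3:89271733-89281142) downstream, all on the same strand, so that 3 of the 5 ephrin-A genes form 1 cluster. The other genes lie at chr10:80179482-80190010 (Efna2), chr17:62604184-62881317 (Efna5), chrX:99136130-99148991 (Efnb1), chr8:8617434-8661242 (Efnb2), chr6:42358487-42373268 (Epha1), chr4:141301240-141329384 (Epha2) and chr5:137350109-137378669 (Ephb4). Exons of Efna4, Epha1 and Ephb4 are overlapped on the opposite strand by 4731419I09Rik, Zyx and Zan, and those of Efna3 by Gm15998. Use of the strand in counting is not settled by the sources, so reads in these overlaps cannot be assigned with certainty.

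The 250 bases before the RefSeq start are shown, 5′ to 3′ on the strand of the gene, for the 4 genes that were higher in Tspan8pos cells at both MHCII levels by at least 1 on the log2 scale (Efna3, Efna4, Efnb2, Epha1) and for Ephb4, which was lower there. The sequences are RefSeq promoters of build GRCm38.p6. They span chr3:89322940-89323189 for Efna3, chr3:89338029-89338278 for Efna4, chr8:8661243-8661492 for Efnb2, chr6:42373269-42373518 for Epha1 and chr5:137349859-137350108 for Ephb4. Capitals mark matches, on either strand, to 3 short motifs, GGAAGT for ETS factors, CCACCC for KLF factors and TGANTCA for AP-1.
Efna3: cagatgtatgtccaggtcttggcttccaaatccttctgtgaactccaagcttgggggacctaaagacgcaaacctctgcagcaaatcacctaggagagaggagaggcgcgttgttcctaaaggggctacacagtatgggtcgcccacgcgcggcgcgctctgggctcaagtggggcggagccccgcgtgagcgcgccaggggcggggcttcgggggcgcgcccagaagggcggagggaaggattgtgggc
Efna4: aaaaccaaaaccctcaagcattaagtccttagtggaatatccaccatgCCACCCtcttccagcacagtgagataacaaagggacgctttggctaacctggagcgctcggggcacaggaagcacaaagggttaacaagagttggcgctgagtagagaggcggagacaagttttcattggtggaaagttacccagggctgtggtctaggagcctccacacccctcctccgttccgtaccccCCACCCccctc
Efnb2: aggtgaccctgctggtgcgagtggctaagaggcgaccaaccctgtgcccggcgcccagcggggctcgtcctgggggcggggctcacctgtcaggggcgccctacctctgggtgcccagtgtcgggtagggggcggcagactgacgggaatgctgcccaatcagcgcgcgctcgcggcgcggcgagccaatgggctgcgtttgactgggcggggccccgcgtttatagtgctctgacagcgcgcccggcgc
Epha1: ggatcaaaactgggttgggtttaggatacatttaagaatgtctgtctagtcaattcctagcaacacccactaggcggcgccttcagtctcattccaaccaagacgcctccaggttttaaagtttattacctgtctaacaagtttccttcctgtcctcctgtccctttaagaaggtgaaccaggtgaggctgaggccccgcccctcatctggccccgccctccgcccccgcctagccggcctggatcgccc
Ephb4: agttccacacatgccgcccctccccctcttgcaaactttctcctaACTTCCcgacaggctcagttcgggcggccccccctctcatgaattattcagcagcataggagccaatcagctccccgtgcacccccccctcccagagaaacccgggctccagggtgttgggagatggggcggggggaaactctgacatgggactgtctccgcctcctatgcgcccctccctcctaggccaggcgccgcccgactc
The Efna4 window held CCACCC at 202 and 11 bases before the start. The Ephb4 window held ACTTCC, the reverse complement of GGAAGT, at 205 bases before the start. No match was found in the windows shown for Efna3, Efnb2 and Epha1. A second RefSeq start of Efna3 had GGGTGG, the reverse complement of CCACCC, at 155 and 84 bases upstream. Over the 12 RefSeq promoters of the 10 genes, CCACCC was found in 5 (41.7%), GGAAGT in 3 (25%) and TGANTCA in 0. Of 32851 RefSeq promoters of the same length, 28.075%, 19.741% and 6.749% held these motifs. A match is a run of letters and not a site of binding.

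Efna3 was a Tspan8pos transcript at both MHCII levels. It was at 4.77 and 3.06 CPM in Tspan8negMHCIIlo, 1.87 and 1.15 CPM in Tspan8negMHCIIhi, 71.9 and 82.9 CPM in Tspan8posMHCIIhi and 113 and 111 CPM in Tspan8posMHCIIlo. The 4 Tspan8pos libraries were all above the 4 Tspan8neg libraries, and the highest subset was Tspan8posMHCIIlo rather than Tspan8posMHCIIhi, the subset it was selected on. Means were 3.92 ± 1.21, 1.51 ± 0.508, 77.4 ± 7.78 and 112 ± 1.78 CPM (SD, n = 2) in that order. The raw counts behind them were 17 and 13, 9 and 9, 361 and 408, and 206 and 811. Between the 2 MHCIIlo subsets, Efna3 rose 28.8-fold in Tspan8pos cells (log2 fold change 4.85, SE 0.23, edgeR quasi-likelihood test, adjusted p = 1.6e-07). With any 1 of the 8 libraries left out this log2 fold change was 4.54 to 5.17. The selection named Tspan8posMHCIIhi and no subset to compare it with. Whether it also drew on the MHCIIlo libraries is not known, so this p-value is no independent test of Efna3. Between the 2 MHCIIhi subsets, the log2 fold change was 5.73 (SE 0.25), a 52.9-fold difference. MHCIIhi was 1.41 (SE 0.38) below MHCIIlo on the log2 scale in Tspan8neg cells and 0.53 (SE 0.16) below it in Tspan8pos cells. In both, the 2 libraries of one MHCII level lay apart from the 2 of the other, as for 72.1% and 58.1% of all genes tested. The step in Tspan8neg cells rested on 9 to 17 counts per library and did not pass the thresholds applied to all genes. By mean, the order from high to low was Tspan8posMHCIIlo, Tspan8posMHCIIhi, Tspan8negMHCIIlo and Tspan8negMHCIIhi. In sorted populations, fewer cells that make a transcript and less of it per cell cannot be told apart.

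**Figure D1:**
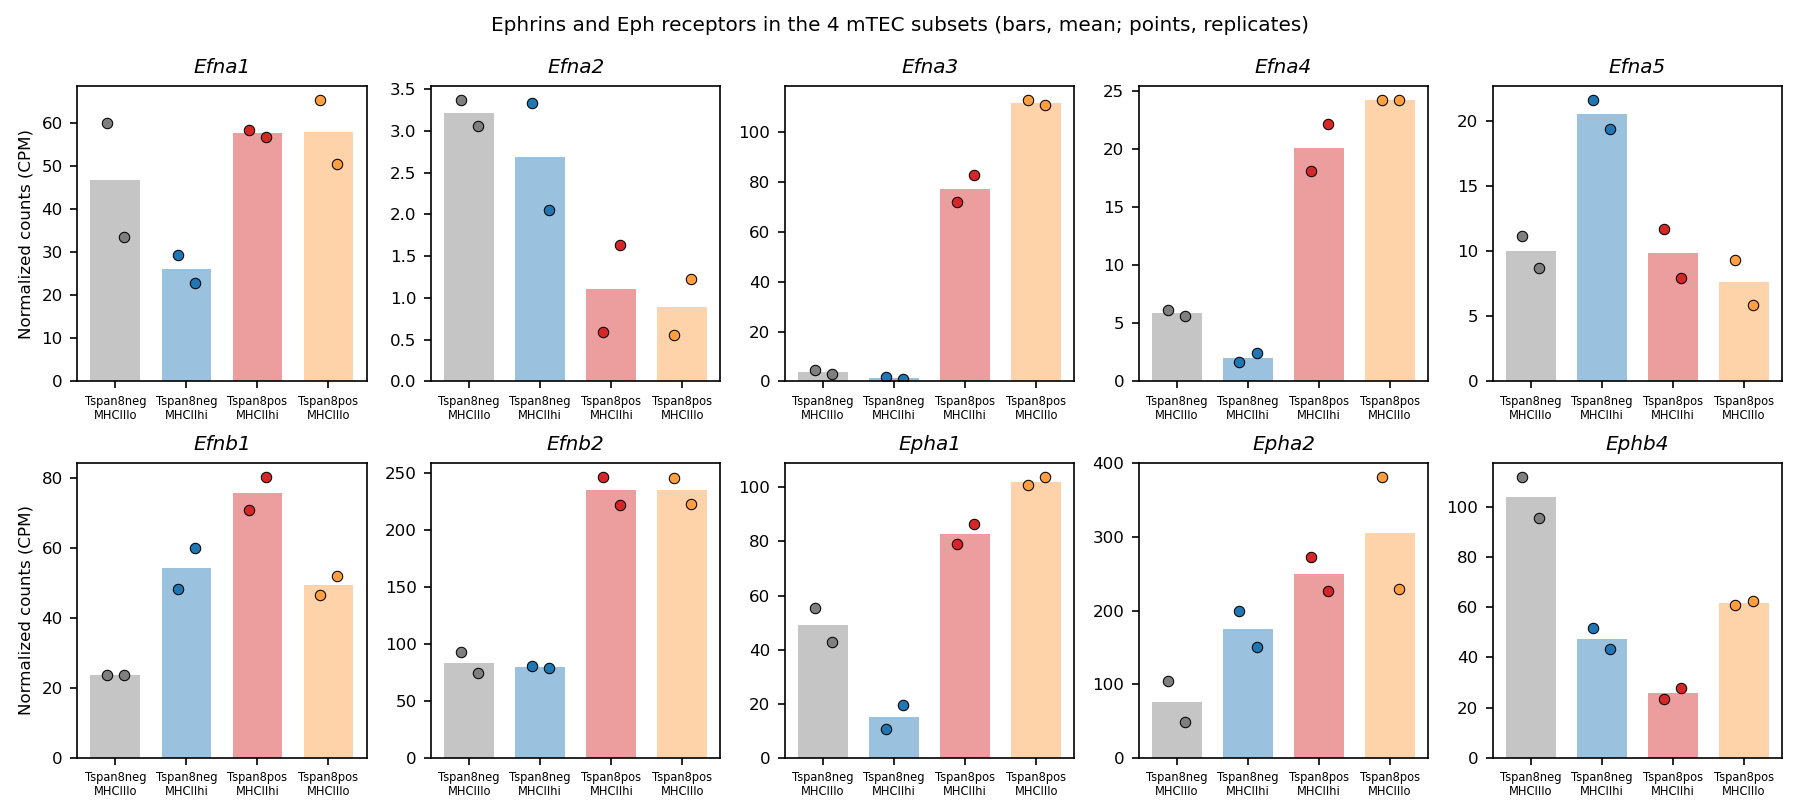
Normalized counts (CPM, linear axis from 0) of the 10 ephrin and Eph genes in the 4 mTEC subsets, with bars for the mean and points for the 2 replicates. Efna3 stood at 71.9 to 113 CPM in the Tspan8pos libraries and at 1.15 to 4.77 CPM in the Tspan8neg libraries, and Ephb4 ran the other way within each MHCII level.

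The profile of Efna3 over the 8 libraries was compared with those of 11047 genes. Each of these genes averaged 10 CPM or more across all 8 libraries. The measure was the root mean square difference of log2 values centred on each gene. The 5 closest were Krt6a (0.273), Aqp5 (0.362), Irx2 (0.384), Ivl (0.422) and Sbsn (0.422), against a median of 2.56 over all of these genes. Krt6a encodes a keratin of stratified epithelium, Aqp5 a water channel of glands and airways, and Ivl and Sbsn proteins of the differentiated epidermis. Ivl, for example, was at 9.27 and 6.6, 9.15 and 5.51, 286 and 210, and 366 and 276 CPM in the order of subsets used above. Of the other listed genes, Efna4 came nearest, at rank 242 (1.3), followed by Epha1 at rank 601 (1.69). Ranks of ephrin and Eph genes outside the list were not examined. The same 5 genes led with a smaller prior count of 0.5. Counts of Krt6a may be shared with the similar keratin gene Krt6b. The summed level of 6 markers of late cornified epithelium, Ivl and Sbsn among them, was 120 to 166 CPM in Tspan8negMHCIIlo, 149 to 189 in Tspan8negMHCIIhi, 3459 to 3836 in Tspan8posMHCIIhi and 3826 to 3946 in Tspan8posMHCIIlo. Their part in the levels of Efna3 was not tested.

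The first comparison set Tspan8pos against Tspan8neg cells at low MHCII. Of the 10 genes, 6 rose in Tspan8posMHCIIlo (Efna3, Efna4, Epha2, Efnb2, Efnb1 and Epha1) and 0 fell, where 12.1% of all 17006 genes tested rose and 9.34% fell. To be counted, a gene had to differ by 1 or more on the log2 scale with an adjusted p below 0.01. The list was built around Efna3 and chosen with earlier results of these data known. Its counts and median thus describe the list and are no test of it. DESeq2 also counted 6 and 0, and 2 of the 10 were lower at an unadjusted p under 0.05. The median log2 fold change of the 10 genes was 1.07, against -0.03 over all genes tested. In 8 of the 10 the libraries of the 2 subsets did not overlap, as in 67.8% of all genes tested. The fold changes are plotted by gene and comparison.

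**Figure D2:**
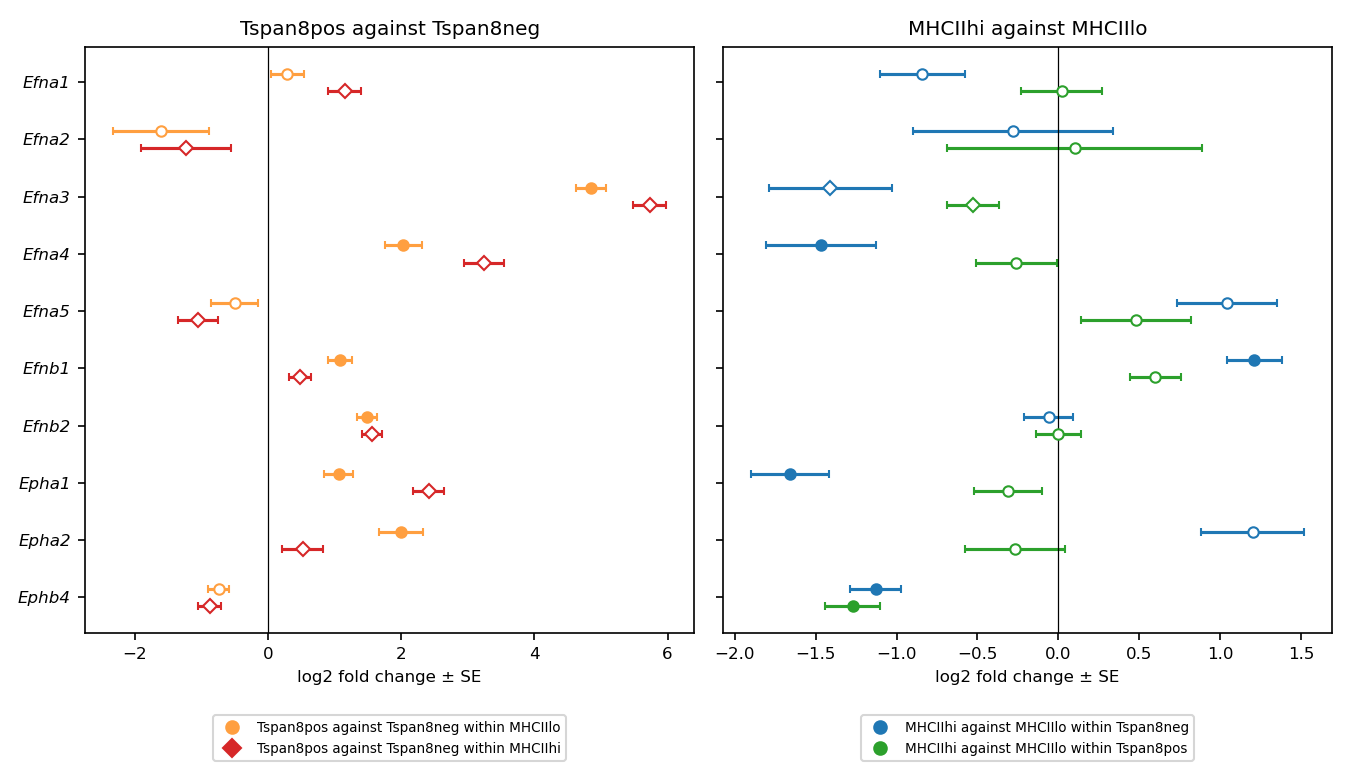
Log2 fold changes with SE of the 10 genes, for Tspan8pos against Tspan8neg (left, at MHCIIlo and MHCIIhi) and MHCIIhi against MHCIIlo (right, in Tspan8neg and Tspan8pos). Filled circles passed both thresholds, open circles did not, and open diamonds are values given without a test; Efna3 lies furthest right in the left panel, at 4.85 and 5.73.

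Among the ligands, Efna4 followed Efna3 at a lower level. It was at 6.18 and 5.66 CPM in Tspan8negMHCIIlo, 1.66 and 2.44 in Tspan8negMHCIIhi, 18.1 and 22.1 in Tspan8posMHCIIhi and 24.2 and 24.2 in Tspan8posMHCIIlo. Every Tspan8pos library was above every Tspan8neg library, and the rise within MHCIIlo was 4.08-fold (log2 2.03, SE 0.28, edgeR adjusted p = 0.000195). Efnb2, an ephrin-B ligand known from arterial endothelium, was at 92.7 and 74.3, 80.9 and 78.7, 247 and 222, and 246 and 223 CPM in the same order. All its Tspan8pos libraries were above its Tspan8neg libraries, by a similar size at both MHCII levels. It rose by 1.49 on the log2 scale within MHCIIlo (SE 0.15, edgeR adjusted p = 1.89e-05), and was 1.56 higher (SE 0.15) within MHCIIhi, whereas MHCIIhi against MHCIIlo gave -0.06 (SE 0.15) in Tspan8neg and 0.00 (SE 0.14) in Tspan8pos cells. Efnb1 was at 23.6 and 23.6, 48.2 and 60.1, 70.9 and 80.5, and 46.7 and 52 CPM. It was lowest in Tspan8negMHCIIlo and highest in Tspan8posMHCIIhi, and the subsets between overlapped. Its rise within MHCIIlo was 1.08 (SE 0.18, edgeR adjusted p = 0.000606), and 0.99 (adjusted p = 0.0147), no longer counted, without replicate 2 of Tspan8posMHCIIlo.

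Efna1, the most abundant ephrin-A transcript of the Tspan8neg subsets, was at 60.1 and 33.5, 29.3 and 22.9, 58.5 and 56.9, and 65.4 and 50.5 CPM. Replicate 1 of Tspan8negMHCIIlo lay within the range of the Tspan8pos libraries, and the difference within MHCIIlo was not counted (log2 0.29, SE 0.25, edgeR adjusted p = 0.397). Within MHCIIhi it was 1.15 (SE 0.25) higher in Tspan8pos cells. Efna5 was at 11.2 and 8.72, 21.6 and 19.4, 11.7 and 7.92, and 9.34 and 5.87 CPM. Both Tspan8negMHCIIhi libraries were above all others, opposite to Efna3, for which that subset was the lowest. The log2 difference within MHCIIlo was -0.50 (SE 0.35, edgeR adjusted p = 0.281) and that within MHCIIhi was -1.05 (SE 0.30). Efna2 had 1 to 16 counts per library and was at 3.37 and 3.06, 3.33 and 2.05, 0.597 and 1.63, and 0.55 and 1.23 CPM. Its Tspan8neg values were all above its Tspan8pos values, but at this depth the difference within MHCIIlo was not detectable (log2 -1.61, SE 0.72, edgeR adjusted p = 0.0972).

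Levels of different genes were compared per kilobase of exon. In this unit, the 5 ephrin-A genes summed to 26.7 to 43 CPM per kb in Tspan8negMHCIIlo, 20.3 to 24.8 in Tspan8negMHCIIhi, 76.1 to 81.7 in Tspan8posMHCIIhi and 90.2 to 100 in Tspan8posMHCIIlo. Efna3 made up 4.56 to 4.72%, 2.34 to 3.11%, 38.8 to 41.7% and 46.5 to 50.4% of that sum. Efna1 made up 68.5 to 76.3%, 61.8 to 64.7%, 38 to 42.1% and 30.6 to 35.8%. Efna1 was thus the leading ephrin-A in all Tspan8neg libraries, and Efna3 in the Tspan8posMHCIIlo libraries, while in Tspan8posMHCIIhi both held about equal shares. The exon length of Efna3 (2434 bp) is longer than its median annotated transcript (742 bp), and with the latter length Efna3 made up 63.3 to 66.4% in Tspan8posMHCIIhi and 70.6 to 74% in Tspan8posMHCIIlo.

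**Figure D3:**
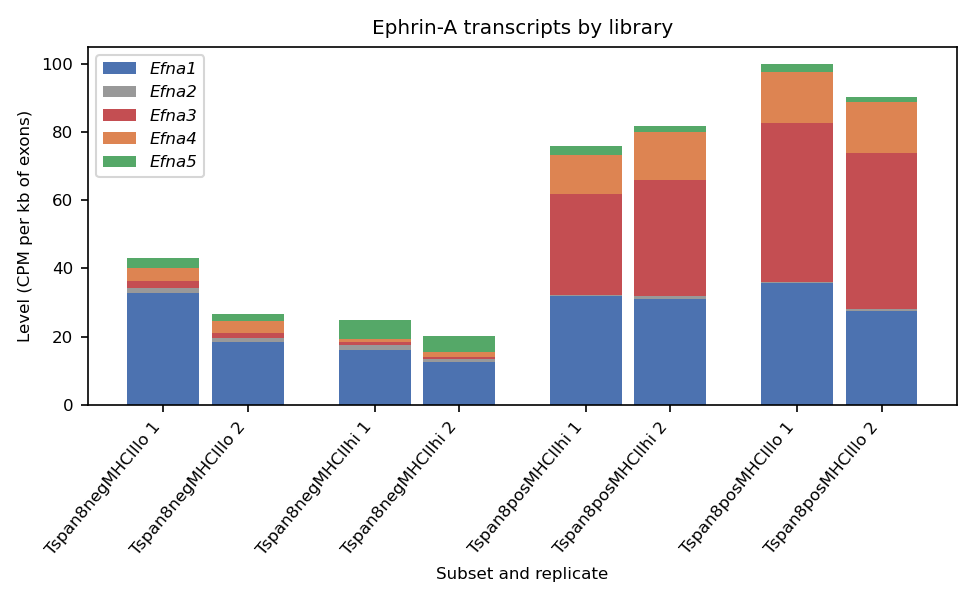
Level of the 5 ephrin-A genes in each library (CPM per kb of exons, linear axis from 0), stacked by gene. The stacks reach 76.1 to 100 CPM per kb in the 4 Tspan8pos libraries and 20.3 to 43 in the 4 Tspan8neg libraries, and the Efna3 segment is 46.5 to 50.4% of the Tspan8posMHCIIlo stacks.

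Both EphA receptors, partners of the ephrin-A ligands, were also higher in Tspan8posMHCIIlo than in Tspan8negMHCIIlo. Epha1 was at 55.6 and 42.9, 10.8 and 19.4, 78.9 and 86.4, and 101 and 104 CPM. The subsets did not overlap, and their means stood in the same order as for Efna3. The Tspan8pos subsets were not told apart by the test (MHCIIhi against MHCIIlo -0.31, SE 0.21, edgeR adjusted p = 0.373). The libraries of 58.1% of all genes tested did not overlap between them. It rose by 1.06 on the log2 scale within MHCIIlo (SE 0.22, edgeR adjusted p = 0.00274). This was no longer counted without replicate 2 of Tspan8negMHCIIlo (0.88, adjusted p = 0.00769) or without replicate 1 (1.07, 0.0162) or replicate 2 (1.04, 0.0308) of Tspan8posMHCIIlo. Within MHCIIhi the log2 difference of Epha1 was 2.41 (SE 0.23). Epha2, an EphA receptor common in epithelia, was at 104 and 49.3, 199 and 151, 273 and 227, and 382 and 229 CPM. Every library of Tspan8negMHCIIlo was below every other library. Epha2 rose by 1.99 within MHCIIlo (SE 0.33, edgeR adjusted p = 0.000617) and was 0.52 (SE 0.31) higher within MHCIIhi. Per kilobase, Epha2 was the most abundant of the 10 genes in the other 3 subsets, at 37.5 CPM per kb in Tspan8negMHCIIhi, 53.5 in Tspan8posMHCIIhi and 65.4 in Tspan8posMHCIIlo, and at 16.4 it was below Efna1 (25.6) and Ephb4 (22.3) in Tspan8negMHCIIlo. With the median transcript length (750 bp in place of 4674 bp for Epha2) it was the highest there too, at 102 CPM per kb.

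Ephb4, the receptor that pairs with Efnb2 in blood vessels, ran opposite to it with Tspan8. It was at 112 and 95.5 CPM in Tspan8negMHCIIlo, 51.6 and 43.2 in Tspan8negMHCIIhi, 23.5 and 27.8 in Tspan8posMHCIIhi and 61 and 62.4 in Tspan8posMHCIIlo. The libraries of the 4 subsets did not overlap. The log2 difference between Tspan8pos and Tspan8neg cells was -0.74 within MHCIIlo (SE 0.16, edgeR adjusted p = 0.00339), below the size limit of 1, and -0.88 (SE 0.17) within MHCIIhi. The neighbouring levels of Tspan8posMHCIIlo and Tspan8negMHCIIhi differed by 0.39 (SE 0.16, adjusted p = 0.0659). The summed endothelial markers moved with MHCII as Ephb4 did. The summed level of 6 endothelial markers was 115 to 153 CPM in Tspan8negMHCIIlo, 26.2 to 31.5 in Tspan8negMHCIIhi, 27.3 to 29.7 in Tspan8posMHCIIhi and 92.6 to 118 in Tspan8posMHCIIlo. The sums thus overlapped between Tspan8neg and Tspan8pos cells at each MHCII level, where the Ephb4 libraries did not. All 6 were above 0 in every subset but Tspan8posMHCIIhi, where Emcn was at 0. The single markers differed within MHCIIlo. Tek was at 13.8 and 21 CPM in Tspan8negMHCIIlo and at 45.6 and 47.4 CPM in Tspan8posMHCIIlo, opposite to Ephb4. Pecam1 was lower in Tspan8posMHCIIlo, as Ephb4 was, at 36.8 and 23.1 against 61.5 and 62.7 CPM. Cdh5 (22 and 10.4 against 37.4 and 19.3) and Tie1 (7.7 and 3.82 against 24.7 and 6.6) leaned the same way with overlap. Kdr and Emcn overlapped too. The part of the markers in the MHCII difference of Ephb4 was not tested.

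For the 2 MHCIIhi subsets, which include the subset that the selection named, the counts are a description and no test of the list. The thresholds used for all genes marked 5 of the 10 as higher in Tspan8pos cells (Efna3, Efna4, Epha1, Efnb2 and Efna1) and 0 as lower, beside 11% and 7.45% of all genes tested. DESeq2 also marked 5 and 0, and 2 were lower at an unadjusted p under 0.05. The libraries of all 10 genes did not overlap here, as for 73.8% of all genes, and nothing is read from these counts. The median log2 fold change was 0.84, against -0.03 over all genes.

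With MHCII in Tspan8neg cells, the ligands and receptors moved in both directions. Of the 10 genes, 1 rose in Tspan8negMHCIIhi (Efnb1) and 3 fell (Epha1, Efna4 and Ephb4), against 13.1% and 9.67% of all genes tested. Efnb1 rose by 1.21 on the log2 scale (SE 0.17, edgeR adjusted p = 0.000238). Epha1 fell by 1.66 (SE 0.24, adjusted p = 0.000248) and Ephb4 fell by 1.13 (SE 0.16, adjusted p = 0.000207). Without replicate 2 of Tspan8negMHCIIhi, the Ephb4 value was -0.92 and under the size limit (adjusted p = 0.00955). Efna4 fell by 1.47 (SE 0.34, edgeR adjusted p = 0.00499) on 8 to 24 counts per library. This call was lost with DESeq2 (-1.41, adjusted p = 0.023) and whenever 1 library of either subset was left out, with -1.41 (0.0152) and -1.54 (0.0106) without replicates 1 and 2 of Tspan8negMHCIIlo and -1.18 (0.054) and -1.72 (0.0227) without replicates 1 and 2 of Tspan8negMHCIIhi. The count of 4 genes became 2 without replicate 2 of Tspan8negMHCIIhi. Epha2 was 1.20 higher in Tspan8negMHCIIhi (SE 0.32, adjusted p = 0.0111), just outside the threshold, and was counted without replicate 1 of Tspan8negMHCIIlo (1.82, adjusted p = 0.000173). Efna5 was 1.04 higher (SE 0.31, adjusted p = 0.0178). Efna1 was 0.84 lower (SE 0.26, adjusted p = 0.0212), and 1.23 lower and counted (adjusted p = 0.000275) without replicate 2 of Tspan8negMHCIIlo, the library with the most thymocyte transcripts. The median over the 10 genes was -0.56, against -0.04 over all genes. The libraries of 8 did not overlap, as for 72.1% of all genes.

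In Tspan8pos cells, Ephb4 fell by 1.27 with MHCII (SE 0.17, edgeR adjusted p = 0.000489), and 0 rose, against 2.62% and 4.59% of all genes tested. DESeq2 also counted 1 and 0, and 1 gene was higher at an unadjusted p under 0.05. The call of Ephb4 was lost without replicate 1 of Tspan8posMHCIIhi (-1.13, adjusted p = 0.0111) and without replicate 2 of Tspan8posMHCIIlo (-1.25, adjusted p = 0.0136). Efnb1 was 0.60 higher (SE 0.16, adjusted p = 0.0263). The log2 differences of Efna1, Efna4, Efnb2, Epha1 and Epha2 lay between -0.31 and 0.02, with SE of 0.14 to 0.31. The median over the 10 genes was -0.13, against 0.01 over all genes. The libraries of 5 did not overlap, as for 58.1% of all genes.

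Whether the Tspan8 difference itself depended on MHCII was tested as the interaction, the log2 difference within MHCIIhi minus that within MHCIIlo. By edgeR 0 of the 10 genes passed in either direction, against 2.24% of all genes that were more positive and 2.36% that were more negative. At an unadjusted p under 0.05, 3 were more positive and 2 more negative, and DESeq2 counted 1, Epha1 (1.31, adjusted p = 0.00803). The edgeR value of Epha1 was 1.35 (SE 0.32, adjusted p = 0.0189). It passed without replicate 2 of Tspan8negMHCIIlo (1.53, adjusted p = 0.00298) and without replicate 2 of Tspan8negMHCIIhi (1.81, 0.0095). The value of Epha2 was -1.47 (SE 0.44, adjusted p = 0.0541), and -2.06 (0.0013) without replicate 1 of Tspan8negMHCIIlo. That of Efna1 was 0.87 (SE 0.36, adjusted p = 0.146), and 1.27 (0.00439) without replicate 2 of Tspan8negMHCIIlo. For Efna3 it was 0.88 (SE 0.41), and for Efnb2 0.07 (SE 0.21).

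The other 12 ephrin and Eph genes gave a wider view of the family. Within MHCIIlo, 2 rose in Tspan8pos cells and 0 fell, 16.7% and 0% of the 12 beside 12.1% and 9.34% of all genes tested. DESeq2 counted the same numbers, and 1 was lower at an unadjusted p under 0.05. Epha4, a receptor that binds both ephrin classes, was at 34.8 and 16, 15.2 and 23.2, 112 and 78, and 143 and 126 CPM, and it rose by 2.42 on the log2 scale (SE 0.32, edgeR adjusted p = 0.000131). Ephb3 was at 62.9 and 51.9, 47.8 and 42.3, 99.8 and 86.8, and 144 and 119 CPM, and it rose by 1.18 (SE 0.17, adjusted p = 0.000209). The Tspan8pos libraries of both genes were above all Tspan8neg libraries. Ephb4 held 44.2 to 52.4% and 46.4 to 50.7% of the EphB sum in Tspan8negMHCIIlo and Tspan8negMHCIIhi and 17.2 to 20.9% and 24.5 to 25.8% in Tspan8posMHCIIhi and Tspan8posMHCIIlo, where Ephb3 held 45.5 to 51% and 34.2 to 40.5% and Ephb6 31 to 31.9% and 31.5 to 36.1%. Which EphB gene led depended on the length used. With the median transcript length, Ephb6 led in Tspan8negMHCIIlo (51.7 to 62.6%) and in both Tspan8pos subsets (48.1 to 50% and 50.3 to 56.2%), Ephb3 led in Tspan8negMHCIIhi (37.2 to 42.2%), and Ephb4 led in no library.

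A second group of the 12 genes was highest in Tspan8negMHCIIhi, as was Efna5. Efnb3 was at 1.4 and 4.48, 16.4 and 12.9, 1.99 and 4.06, and 1.1 and 1.91 CPM, and it rose by 2.27 from Tspan8negMHCIIlo to Tspan8negMHCIIhi (SE 0.51, edgeR adjusted p = 0.00428). Epha3 was at 2.81 and 4.48, 10.6 and 8.84, 2.79 and 3.25, and 2.75 and 1.77 CPM (1.39, SE 0.41, adjusted p = 0.0185). Epha8 had 0 counts in both Tspan8negMHCIIlo libraries and 59 and 72 counts in Tspan8negMHCIIhi, where it was thus at least 13.9-fold higher, taking 3 counts per library as the floor. In Tspan8posMHCIIhi it had 9 and 14 counts and in Tspan8posMHCIIlo 2 and 9. Ephb6, an Eph receptor without kinase activity, fell by 2.18 in Tspan8negMHCIIhi (SE 0.22, adjusted p = 2.49e-05), from 44.7 and 63.2 to 9.77 and 13.7 CPM, and Epha7 fell by 2.05 (SE 0.45, adjusted p = 0.00375), from 14.9 and 7.07 to 2.5 and 2.69 CPM. With DESeq2 the call of Epha7 was lost (-1.99, adjusted p = 0.0103). With MHCII in Tspan8neg cells 2 of the 12 rose (Epha8 and Efnb3) and 2 fell, beside 13.1% and 9.67% of all genes tested. Epha10 (2.72 ± 0.32 CPM) and Ephb1 (2.65 ± 0.665 CPM; SD, n = 2) also had their highest mean in Tspan8negMHCIIhi, on at most 23 counts per library, and Epha5 and Epha6 were below 5 CPM in every library. The thymocyte markers were also higher in Tspan8negMHCIIlo (336 to 933 CPM) than in Tspan8negMHCIIhi (62.8 to 129 CPM), and their part in Ephb6 was not tested. With MHCII in Tspan8pos cells, 0 of the 12 passed by edgeR, beside 4.59% higher and 2.62% lower among all genes tested. At an unadjusted p under 0.05, 3 were lower and 0 higher, and DESeq2 counted 1 lower. Between the MHCIIhi subsets 3 passed as higher in Tspan8pos cells (Epha4, Ephb6 and Ephb3) and 3 as lower (Efnb3, Epha8 and Epha3), beside 11% and 7.45% of all genes tested. DESeq2 counted 2 and 1, without Ephb3 (0.99, under the size limit), Epha8 (-2.27, adjusted p = 0.015) and Epha3 (-1.75, adjusted p = 0.0322).

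**Figure D4:**
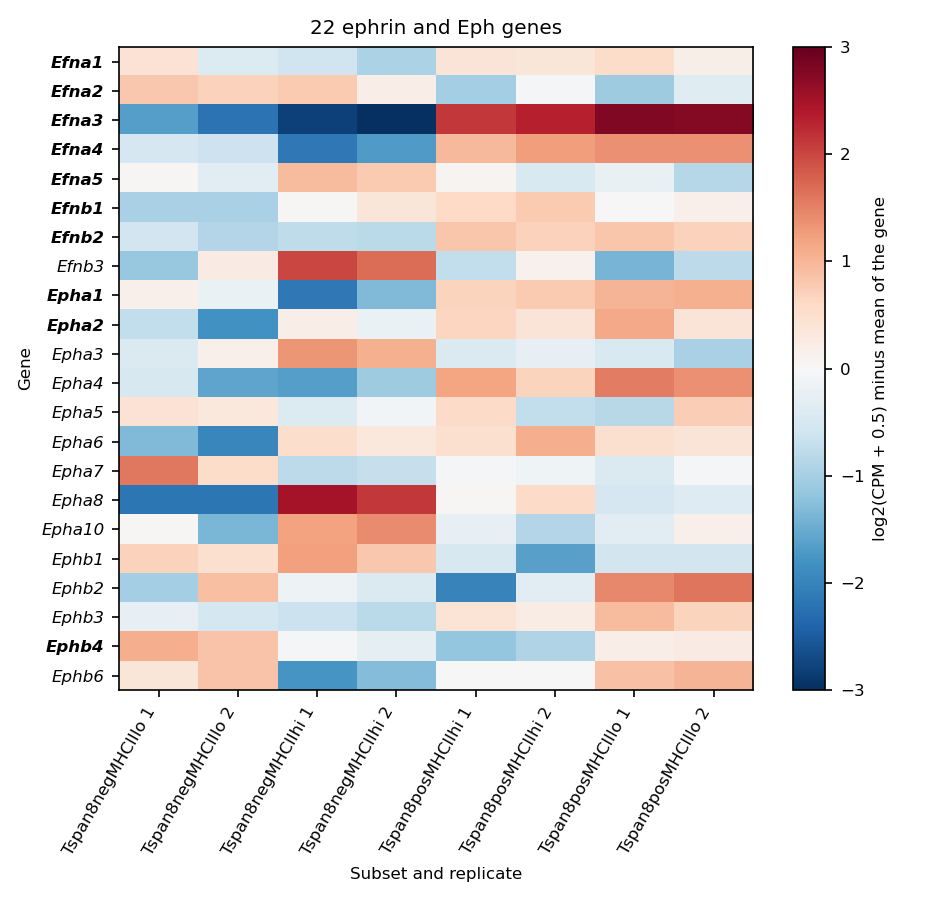
Levels of the 22 ephrin and Eph genes in the 8 libraries, as log2(CPM + 0.5) minus the mean of each gene, with the 10 listed genes in bold. Efna3, Efna4, Efnb2, Epha1, Epha4 and Ephb3 are above their mean in all 4 Tspan8pos libraries, whereas Efnb3, Epha3 and Epha8 are highest in Tspan8negMHCIIhi.

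The flanks of Efna3 were examined because Efna4 and Efna1 lie there. Of 20 other annotated genes whose whole span lies within 100 kb of the Efna3 start, 18 were in the table and 13 were tested. Within MHCIIlo, 5 of the 13 rose in Tspan8pos cells and 1 fell, beside 12.1% and 9.34% of all genes tested, with a median of 0.48 against -0.03. DESeq2 counted 4 and 1, without 4731419I09Rik (adjusted p = 0.0118). Besides Efna4, these were Adam15, a membrane metalloprotease (43.3 and 44.1 against 110 and 110 CPM, log2 1.33, SE 0.18, edgeR adjusted p = 0.000151), Zbtb7b, a zinc finger factor (35.1 and 41.5 against 115 and 97.2 CPM, 1.46, SE 0.17, adjusted p = 6.95e-05), Muc1, a membrane mucin (44.7 and 45.7 against 150 and 150 CPM, 1.73, SE 0.14, adjusted p = 4.37e-06), and the antisense transcript 4731419I09Rik. The last of these had 0 counts in Tspan8negMHCIIlo and 2 and 29 in Tspan8posMHCIIlo, 1 of them under the floor of 3 counts, so no fold size is given. It shares exonic positions with Efna4 and overlaps the body of Adam15. Cks1b, a cell-cycle gene, fell by 2.75 (SE 0.32, adjusted p = 4.95e-05), from 17.1 and 22.4 to 2.75 and 3 CPM. The genes that rose start at -93.9 (Muc1), 15.1 (Efna4), 27.0 (Adam15) and 71.8 kb (Zbtb7b) from the Efna3 start, beside 4731419I09Rik. Efna1, at -41.8 kb, and Slc50a1, Dpm3, Trim46, Krtcap2, Flad1 and Dcst2 did not pass the thresholds. The exon-overlapping Gm15998 did not pass the filter and was at 0 counts in all 4 MHCIIlo libraries, where Efna3 had 13 to 811 counts.

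**Figure D5:**
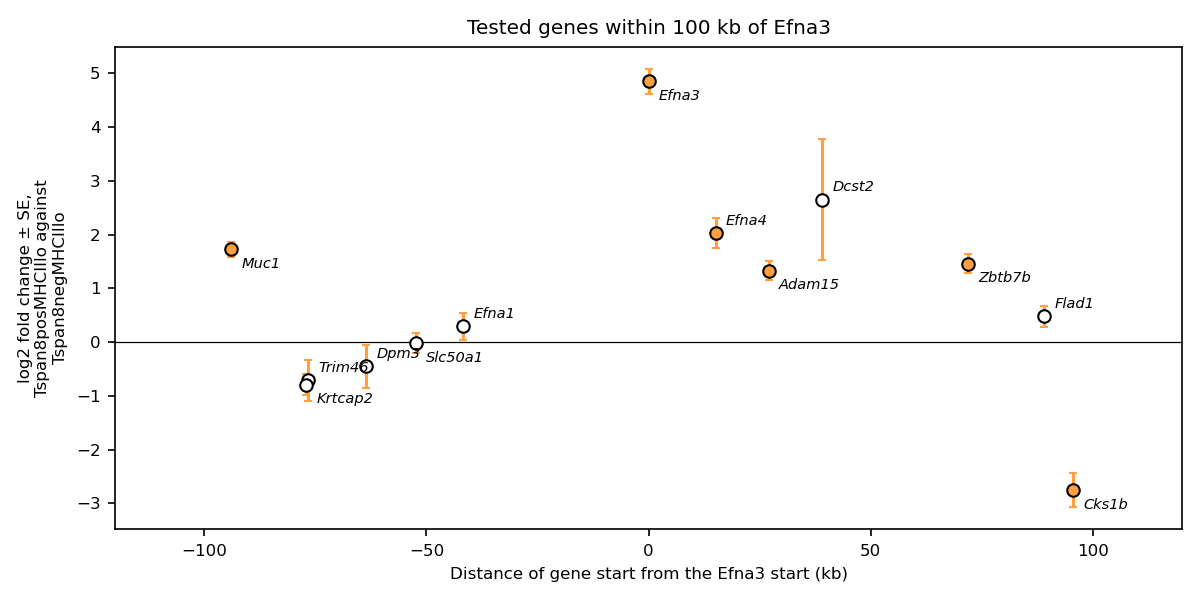
Log2 fold change with SE of the tested genes within 100 kb of Efna3, in Tspan8posMHCIIlo against Tspan8negMHCIIlo, by the distance of the gene start from that of Efna3 (kb). Filled points passed both thresholds; Efna3 is at 4.85, Efna4 at 2.03 and Cks1b at -2.75, and 4731419I09Rik is left out because one group was at 0 counts.

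Downstream genes were described with a list of 48 adaptors, exchange factors, kinases, phosphatases and proteases of Eph and ephrin signalling, all of them tested. Within MHCIIlo, 6 rose in Tspan8pos cells and 4 fell, 12.5% and 8.33% of the list, close to the shares of all genes tested. The median was -0.04, against -0.03. Those with the largest changes were Ngef, the exchange factor ephexin that acts downstream of EphA receptors (3.11, SE 0.38, edgeR adjusted p = 7.59e-05), the scaffold Pdzk1 (2.89, SE 0.57, 0.00198), the Rac inactivator Chn1 (2.42, SE 0.35, 0.000229), the phosphatase Ptprj (2.05, SE 0.15, 1.72e-06), the adaptor Grb10 (-2.65, SE 0.25, 1.23e-05) and the ephrin-B scaffold Grip1 (-2.49, SE 0.48, 0.00176). Ptprj, for example, was at 41 and 46.9 CPM in Tspan8negMHCIIlo, 30.6 and 31.9 in Tspan8negMHCIIhi, 85.6 and 75 in Tspan8posMHCIIhi and 190 and 176 in Tspan8posMHCIIlo. Its means stood in the order of Efna3 with no overlap between subsets, but its difference between the Tspan8neg subsets did not pass the thresholds.

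In Tspan8neg cells, 1 gene of the 48 rose with MHCII and 5 fell, 2.08% and 10.4% beside 13.1% and 9.67% of all genes tested. The docking protein Dok1 rose by 1.26 (SE 0.19, edgeR adjusted p = 0.000321). Arhgef19, an exchange factor of the ephexin group, fell by 3.58 (SE 0.27, adjusted p = 3.97e-06), from 37.9 and 30.6 to 2.7 and 2.95 CPM. The kinases Fyn (-1.77, SE 0.26, adjusted p = 0.000299), Abl2 (-1.42, SE 0.31, 0.00337) and Abl1 (-1.27, SE 0.13, 2.84e-05) and the phosphatase Inppl1 (-1.09, SE 0.14, 0.000122) were also lower. Thymocyte markers fell between the same subsets, from 336 to 933 CPM to 62.8 to 129 CPM. Their part in the values of Fyn and the other genes that fell was not tested. In Tspan8pos cells, Chn1 fell by 1.46 with MHCII (SE 0.31, adjusted p = 0.00843) and Ptprj fell by 1.18 (SE 0.14, adjusted p = 0.000226), and 0 rose, beside 2.62% that fell and 4.59% that rose of all genes tested. With DESeq2 Chn1 was at -1.45 and no longer counted (adjusted p = 0.0209). DESeq2 counted 0 that rose as well, and 7 were higher at an unadjusted p under 0.05. Between the MHCIIhi subsets, 6 passed as higher in Tspan8pos cells and 3 as lower, beside 11% and 7.45% of all genes tested, and DESeq2 counted 4 and 2. Ptpro (-3.35, SE 0.84), Grb10 (-2.05, SE 0.23) and Vav3 (1.97, SE 0.21) were the furthest from 0.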

How the data were processed

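Libraries were grouped by the subset and replicate in the sample labels. The authors deposited estimated counts per gene, as whole numbers without normalization, so rounding changed no value. Per the study's methods and notes, reads were checked with FastQC and quantified with Salmon 1.8.0 on the Gencode mouse transcriptome (mm10). How transcripts were summed to genes is not given in the sources used here. Library preparation is described as amplified cDNA with tagmentation in the methods and as a stranded mRNA kit in the labels. Because the cDNA was amplified and no molecular identifiers are named, floors of 3 counts cover counting error only. Symbols and coordinates came from GENCODE vM21 on GRCm38, and 25336 of 25466 identifiers (99.49%) matched a symbol.

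The main test was the quasi-likelihood F test of edgeR 4.0.16 in R 4.3.3 (TMM, filterByExpr, 1 fit of all 8 libraries, common dispersion 0.024), two-sided, with Benjamini-Hochberg adjustment over 17006 genes. The thresholds were an adjusted p of 0.01 and a log2 fold change of 1 in size. The SE is the log2 fold change over the square root of F. CPM used TMM library sizes. Exact permutation tests of 2 against 2 libraries cannot reach 0.05 and were not used.

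The members, gene lists and tests were chosen with earlier results of these data known. Named genes are all ephrin and Eph genes, the genes within 100 kb of Efna3, the 5 profiles closest to Efna3 and, per comparison, up to 6 genes of the signalling list past the thresholds with the largest change. Alternatives were DESeq2 1.42.0, its size factors, other filters and thresholds, the 4 libraries of a contrast, a replicate block and transcript length. Each library was also left out in turn, for the listed ephrin and Eph genes only.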

Additional observations from a re-analysis of the deposited data

Results flagged for a closer look

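In 5 genes of the lists used here, the interaction test passed the thresholds (edgeR quasi-likelihood, log2 difference within MHCIIhi minus that within MHCIIlo). Of the 22 ephrin and Eph genes and of the 13 tested neighbours of Efna3, 1 each was more negative. Of the 48 signalling genes, 2 were more positive and 1 more negative. Among all genes tested the shares were 2.24% more positive and 2.36% more negative. The ephrin and Eph gene was Epha8, with a fitted value of -7.78 (SE 1.40, adjusted p = 0.00673). Both Tspan8negMHCIIlo libraries had 0 counts, so the fitted size depends on the prior count and is no bound. Tspan8posMHCIIlo had 2 and 9 counts of Epha8, 1 of them under the floor of 3 counts. The difference within MHCIIlo did not pass the thresholds (edgeR adjusted p = 0.0102). Within MHCIIhi the log2 difference of Epha8 was -2.19 (SE 0.46).

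Near Efna3, Muc1 had an interaction of -1.22 (SE 0.19, adjusted p = 0.0028). Muc1 was at 44.7 and 45.7 CPM in Tspan8negMHCIIlo, 164 and 182 in Tspan8negMHCIIhi, 230 and 264 in Tspan8posMHCIIhi and 150 and 150 in Tspan8posMHCIIlo, so that the lowest subset was Tspan8negMHCIIlo.

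Of the signalling list, Arhgef19 had an interaction of 2.86 (SE 0.38, adjusted p = 0.00117), with opposite signs of the Tspan8 difference, -1.40 (SE 0.24) within MHCIIlo and 1.46 (SE 0.29) within MHCIIhi. Vav3 had 1.55 (SE 0.30, adjusted p = 0.00827), at 37.1 and 25.7, 14.8 and 17.9, 70.7 and 58.5, and 37.4 and 44.9 CPM in the same order of subsets. Chn1 had -2.71 (SE 0.47, adjusted p = 0.00446), at 3.09 and 4.24, 8.53 and 9.1, 5.97 and 8.53, and 22.5 and 18 CPM.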

How the results depend on the processing

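Of 689 log2 fold changes of the 10 genes under other settings, 636 kept their direction and their side of the thresholds or, where none was tested, moved by less than the replicate SD, among them every value of Efna3 within MHCIIlo. For Tspan8pos against Tspan8neg, leaving out 1 library gave 4 to 6 of the 10 genes within MHCIIlo (6 with all libraries) and 4 to 6 within MHCIIhi (5 with all). Other counts of the 10 genes moved further. In MHCIIhi against MHCIIlo within Tspan8neg, an adjusted p under 0.05 gave 7 in place of 4, and leaving out 1 library gave 2 to 5. Within Tspan8pos, leaving out 1 library gave 0 to 1. In the interaction, where edgeR counted 0, DESeq2 gave 1, no filter on low counts 2, an adjusted p under 0.05 gave 1, and leaving out 1 library 0 to 2. On the signalling list, an adjusted p under 0.05 gave 10 in place of 6 within Tspan8neg and 5 in place of 3 in the interaction. Of 80 levels per kilobase, 34 moved by more than the replicate SD, 30 of them with the median transcript length. The cause was not tested. Changes of sign were found only in values that did not pass. Efnb2 with MHCII in Tspan8neg cells was at 0.02 with DESeq2 and with its size factors, 0.00 with no filter and 0.01 with the 4 libraries alone, and -0.23 to 0.09 with 1 library left out. With 1 library left out, Efna1 ranged from -0.10 to 0.74 within MHCIIlo, Efna2 from -0.55 to 0.14 with MHCII in Tspan8neg, Efna1 from -0.18 to 0.22, Efna2 from -0.76 to 0.98, Efnb2 from -0.07 to 0.10 and Epha2 from -0.61 to 0.15 with MHCII in Tspan8pos, and Efna2 from -0.47 to 1.26, Efnb2 from -0.06 to 0.24 and Ephb4 from -0.33 to 0.01 in the interaction. A subset with 1 library left is assumed to vary like the others.

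Samples with the same replicate number shared little deviation over all genes, with correlations of 0.00402 to 0.0924 over the 6 pairs of subsets. These correlations cannot show whether the replicates were paired for a part of the genes. The thymocyte markers summed higher in replicate 2 of every subset. Replicates 1 and 2 were at 336 and 933 CPM in Tspan8negMHCIIlo, 62.8 and 129 in Tspan8negMHCIIhi, 67.5 and 94.9 in Tspan8posMHCIIhi and 114 and 196 in Tspan8posMHCIIlo. With the replicate number as a block, 2 of the 10 genes passed in the interaction in place of 0 and 6 in place of 4 within Tspan8neg, and the counts of the other 3 comparisons were 6, 6 and 1. Size factors moved the median of all genes by at most 0.0843.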

Other observations

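The tuft cell markers Dclk1, Avil, Trpm5, Pou2f3 and Il25 summed to 867 to 1161 CPM in Tspan8negMHCIIlo, 130 to 140 in Tspan8negMHCIIhi, 886 to 1013 in Tspan8posMHCIIhi and 5382 to 5492 in Tspan8posMHCIIlo. Ephb2 and Ephb6, 2 EphB receptors outside the 10 listed genes, were also highest in Tspan8posMHCIIlo, Ephb2 at 22.5 and 25 CPM against 1.59 to 15.3 in the other libraries, and Ephb6 at 63.8 and 71 against 9.77 to 63.2. With MHCII in Tspan8pos cells, the log2 differences were -2.60 (SE 0.61, edgeR adjusted p = 0.014) for Ephb2 and -0.98 (SE 0.20, adjusted p = 0.00722) for Ephb6, neither past both thresholds. DESeq2 gave -2.58 (adjusted p = 0.00097) for Ephb2, past both. Against Tspan8negMHCIIlo, Tspan8posMHCIIlo was 1.30 higher for Ephb2 (SE 0.57, edgeR adjusted p = 0.0894) and 0.33 higher for Ephb6 (SE 0.20, adjusted p = 0.216), neither counted. Efna3, Efna4, Epha1, Epha2, Epha4 and Ephb3 also had their highest mean in Tspan8posMHCIIlo, so this trait was not particular to Ephb2 and Ephb6. The part of tuft cells in these values was not tested.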
